A study of Mus musculus with 2 samples.

Results

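The Hedgehog pathway components described here are 9 genes, Hhip, Gli1, Gli2, Gli3, Ptch1, Smo, Boc, Cdon and Gas1, chosen by name from the 31054 genes listed in the count tables. Their levels were measured by single-cell RNA sequencing in hepatic stellate cells (HSCs), the vitamin A-storing, collagen-producing mesenchymal cells of the liver, which were prepared by pronase and collagenase perfusion and a Nycodenz gradient. There were 2 libraries, 1 for each genotype, both from male mice that received carbon tetrachloride (CCl4, a hepatotoxin that causes fibrosis) for 4 weeks, together with tamoxifen and diphtheria toxin. The p16-Alb-LRTD mice carried the reporter R26-CAG-LSL-RSR-tdTomato-2A-DTR with both p16-CreERT2 and Alb-DreERT2, so that hepatocytes with high p16 (p16h hepatocytes) expressed the diphtheria toxin receptor and were eliminated by the toxin. The p16-LRTD mice carried p16-CreERT2 and the same reporter without Alb-DreERT2, and served as the control. Both genotypes therefore shared the Cre driver, the reporter, the toxicant, tamoxifen and the toxin. The toxin receptor depends on recombination by both drivers. The study saw very mild fibrosis outside the central-vein zone only in mice with Alb-DreERT2 and the reporter, with or without p16-CreERT2. It speculated that this came from leakage of the receptor through its loxP stop cassette, a limit of the model. That limit falls on p16-Alb-LRTD and not on p16-LRTD, and here it cannot be told apart from the elimination. The number and age of the mice in each library are not given in the sources used here. With 1 library per genotype there were no replicates and no test was possible, so each difference between genotypes is one between 2 libraries.

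Hedgehog ligands (Shh, Ihh and Dhh) bind the receptor Ptch1, with Boc, Cdon and Gas1 acting as co-receptors that help to present them. Unbound Ptch1 holds the membrane protein Smo inactive, and ligand releases this block so that the GLI transcription factors are activated at the primary cilium. Gli1 and Gli2 act mainly as activators, whereas Gli3 is mostly processed to a repressor when ligand is absent. Hhip is a membrane protein that binds and sequesters the ligands, and Hhip, Ptch1 and Gli1 are themselves induced by GLI activators. In the liver the pathway is known for ligand release by injured epithelium and for a response in HSCs and other mesenchymal cells during fibrosis.

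Hhip and Ptch1 are shown first by the 250 bases before their RefSeq start site (GRCm38.p6), because they are the 2 members known both as targets and as inhibitors of the pathway. Each sequence is written 5′ to 3′ on the minus strand, with CG dinucleotides in capitals.
Hhip, chr8:80058009-80058258: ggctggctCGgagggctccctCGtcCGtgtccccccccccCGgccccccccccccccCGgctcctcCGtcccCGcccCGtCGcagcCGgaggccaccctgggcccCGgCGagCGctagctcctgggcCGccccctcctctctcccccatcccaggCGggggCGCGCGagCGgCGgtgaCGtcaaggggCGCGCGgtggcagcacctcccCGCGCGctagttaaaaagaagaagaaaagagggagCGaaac
Ptch1, chr13:63565736-63565985: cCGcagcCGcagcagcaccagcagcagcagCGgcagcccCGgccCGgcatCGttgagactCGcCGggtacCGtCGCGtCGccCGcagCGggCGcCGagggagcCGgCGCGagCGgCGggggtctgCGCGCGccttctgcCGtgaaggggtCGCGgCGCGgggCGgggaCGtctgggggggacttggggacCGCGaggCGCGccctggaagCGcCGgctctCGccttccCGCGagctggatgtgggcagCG

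The Hhip stretch held 28 CG dinucleotides and the Ptch1 stretch held 41, and neither overlapped an exon of its gene in GENCODE vM21. The Ptch1 stretch lies inside the longer gene annotated there, upstream of an internal start. Of the 9 members, 7 had a RefSeq window of 250 bases before and 50 after the start, and Gli1 and Boc had none. The GLI consensus GACCACCCA, searched on both strands, was in 0 of these 7 windows and in 0.253% of all 32851 windows. In GRCm38, Hhip lies on chromosome 8 from 79965851 to 80058006, Ptch1 on chromosome 13 from 63508328 to 63573598, Cdon on chromosome 9 from 35421128 to 35507652 and Gas1 on chromosome 13 from 60174405 to 60177365.

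After filtering, the p16-LRTD library kept 9004 of 11149 barcodes and the p16-Alb-LRTD library 7416 of 8806. Before filtering the libraries held 193746596 and 162219167 unique molecular identifiers (UMIs, each a tag of 1 captured RNA molecule). Cells were put into classes by summed marker UMIs per 10000. The stellate class (Lrat, Ecm1, Hgf and Reln at 15 or more) held 7852 and 6621 cells. The endothelial class (Kdr, Stab2 and Ptprb at 8 or more) held 430 and 283 cells, and the Kupffer class of liver macrophages (Clec4f, Cd5l, Vsig4 and Csf1r at 8 or more) held 283 and 178. Cells over several thresholds (245 and 221) or none (194 and 113) were left out of the classes. Of markers that the rule did not use, 5 stellate genes (Colec11, Dcn, Des, Pdgfrb and Rgs5) summed to 1.36% and 1.78% of their p16-LRTD stellate level in the Kupffer and endothelial cells of that library, and to 1.09% and 1.26% in p16-Alb-LRTD. These shares served as the background level of stellate transcripts in other cells, whether from free RNA or from doublets, which cannot be told apart here. The libraries had 95 barcode sequences in common, of which 22 passed the filters in each.

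Among the 3 classes, the Hedgehog components were mostly transcripts of HSCs. Levels are given as CPM, the UMIs of a gene per 1000000 UMIs of all cells of the class in a library, with 95% exact Poisson intervals that cover counting error only. Hhip, the ligand-binding antagonist, was at 116 CPM (114 to 117) in the stellate cells of the p16-LRTD library and 146 CPM (144 to 148) in those from p16-Alb-LRTD. It had only 6 and 4 UMIs in endothelial cells, and 6 and 7 UMIs in Kupffer cells. Per UMI of the class, those counts were 0.687% to 1.07% of the stellate level, at or below that background share, and are read as background. Gli3 showed the same distribution, with 113 CPM (112 to 115) and 106 CPM (104 to 108) in stellate cells and between 0.671 and 1.79 CPM in the other classes. The co-receptors were also highest in stellate cells. Some of their shares elsewhere were above the summed background share, but single stellate genes also exceeded it. In p16-LRTD, Pdgfrb, the highest of the 5, was at 2.98% of its stellate level in endothelial and 3.67% in Kupffer cells. Col1a1 was at 11.02% in the endothelial cells of that library. Whether the co-receptors were expressed outside stellate cells was not tested. In endothelial cells Cdon was at 6.09% and 12.3% of its stellate level (11 and 9 UMIs) and Gas1 at 5.02% (23 UMIs) in p16-LRTD, whereas Gas1 in p16-Alb-LRTD, at 2.20% (9 UMIs), was not told apart from background. In Kupffer cells Cdon was at 4.58% and 4.89% (8 and 4 UMIs) and Gas1 at 4.52% and 1.52% (20 and 7 UMIs). The last of these was not told apart from background. Gas1 stood at 74.4 CPM (73.0 to 75.8) and 103 CPM (101 to 104) in stellate cells, against 3.74 and 2.26 CPM in endothelial and 3.36 and 1.56 CPM in Kupffer cells. Cdon stood at 29.4 CPM (28.5 to 30.3) and 18.3 CPM (17.6 to 19.1) in stellate cells, against 1.79 and 2.26 CPM in endothelial and 1.35 and 0.894 CPM in Kupffer cells. Boc was at 6.15 CPM (5.75 to 6.57) and 4.58 CPM (4.21 to 4.97) in stellate cells, with 1 UMI in the endothelial cells of each library and 0 in the Kupffer cells of either.

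The receptor and the transducer were less restricted. Ptch1 was at 65.8 CPM (64.4 to 67.1) and 51.8 CPM (50.5 to 53.1) in stellate cells, and at 44.8 CPM (39.7 to 50.5) and 31.6 CPM (26.4 to 37.7) in endothelial cells. The stellate level was 1.47-fold (1.30 to 1.66) the endothelial level in p16-LRTD and 1.64-fold (1.37 to 1.97) in p16-Alb-LRTD, by exact conditional intervals. In Kupffer cells Ptch1 was at 4.21 and 4.47 CPM. Smo was at 33.7 CPM (32.8 to 34.7) and 34.1 CPM (33.1 to 35.1) in stellate cells, and the gap between the other classes differed by library. Endothelial cells had 3.09 and 7.03 CPM of Smo, and Kupffer cells had 11.9 and 7.15 CPM, so that the Kupffer level was above the endothelial level in p16-LRTD and the intervals overlapped in p16-Alb-LRTD. In both libraries these Smo levels were 9.15% or more of the stellate level, above the share of the 5 genes used as background. Col1a1, however, was at 11.02% of its stellate level in the endothelial cells of p16-LRTD and 0.996% in those of p16-Alb-LRTD, and the part of stellate RNA in the endothelial Smo level was not tested. The plot of members by class shows these levels.

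**Figure D1:**
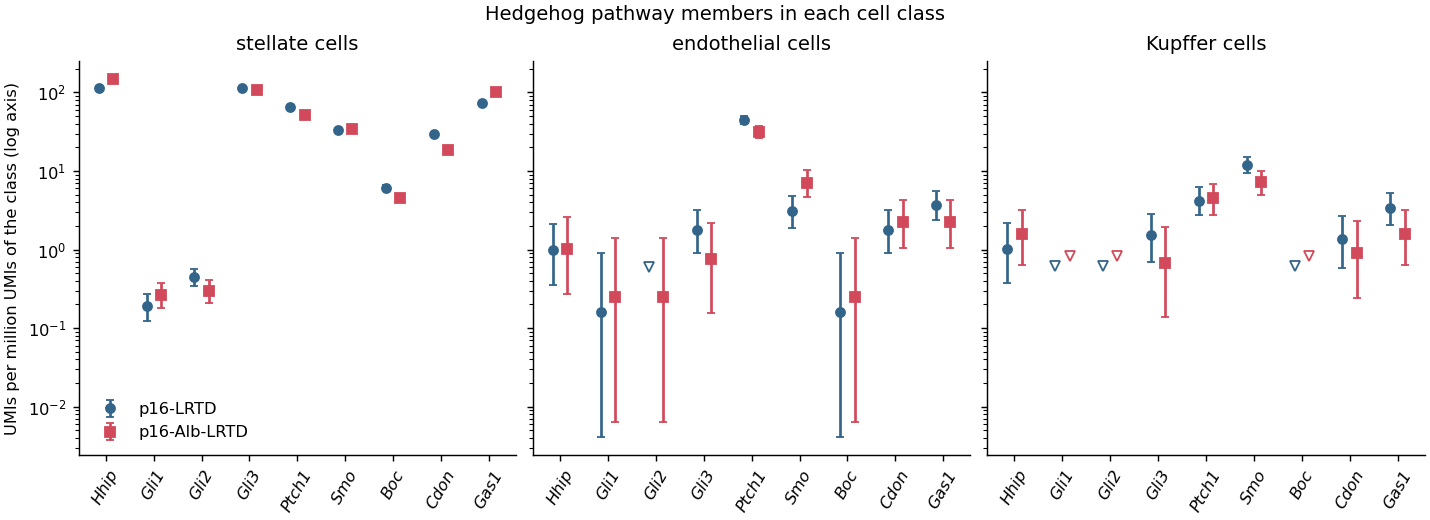
Level of each member (CPM within the class, log axis) in stellate, endothelial and Kupffer cells of p16-LRTD (circles) and p16-Alb-LRTD (squares), with 95% Poisson intervals; open triangles mark 0 UMIs, drawn at the upper limit. Ptch1 and Smo stood above 3 CPM in the endothelial cells of both libraries, whereas Hhip and Gli3 stood below 2 CPM in endothelial and Kupffer cells.

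Of the 6 members with a mean of at least 5 CPM over stellate and endothelial cells in both libraries, 5 were at least 1.5-fold higher in stellate cells, as were 19.3% of all genes, with 0 members and 26.5% of genes lower. All 6 counted against Kupffer cells were higher in stellate cells, as were 28.0% of all genes, with 24.5% lower. Nothing is read from these counts, because Hhip, Gli3, Cdon and Gas1, and against Kupffer cells also Ptch1, passed the minimum only through their stellate level and so had to be higher there. The activators were scarce. Gli1 gave 27 UMIs in 7852 stellate cells of p16-LRTD (0.189 CPM, 0.125 to 0.275) and 33 in 6621 of p16-Alb-LRTD (0.264 CPM, 0.182 to 0.370). Gli2 gave 63 UMIs (0.442 CPM, 0.339 to 0.565) and 37 UMIs (0.296 CPM, 0.208 to 0.408). Gli1 had 1 UMI in the endothelial cells of each library and Gli2 had 0 and 1, and both had 0 in Kupffer cells. With so few cells in those classes, a difference from stellate cells in Gli1 or Gli2 was not detectable.

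The first question was whether the components differed in HSCs after elimination of p16h hepatocytes. Of the 7 members with at least 5 CPM on average in stellate cells, 1 was at least 1.5-fold lower in p16-Alb-LRTD and 0 were at least 1.5-fold higher. Over all 10179 genes at that level, 3.05% were lower and 3.03% were higher by that fold. The median log2 ratio of p16-Alb-LRTD over p16-LRTD was -0.09 for the members and -0.05 for all genes. The members thus showed no common shift beyond that of all genes, and they went different ways.

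Cdon, a co-receptor of the immunoglobulin superfamily, was the member past 1.5-fold. Its levels of 29.4 and 18.3 CPM gave a log2 ratio of -0.68 (-0.76 to -0.61). It was short of 1.5-fold as a mean of per-cell CPM (-0.51), with equal shares of collagen bins (-0.23) and in cells without a fibroblast UMI (-0.37). Its relative Boc went the same way, with a log2 ratio of -0.42 (-0.58 to -0.27) at the low levels given above. Gas1, a lipid-anchored co-receptor of another family, went the opposite way, at 0.46 (0.43 to 0.50). Hhip was likewise higher in p16-Alb-LRTD, at 0.34 (0.31 to 0.37), and Ptch1 was lower, at -0.34 (-0.39 to -0.30). With equal shares of collagen bins the directions of Boc (0.32) and Hhip (-0.08) were reversed. In cells without a fibroblast UMI, Boc stood at 0.11 and Hhip at 0.16. The other members differed little. The log2 ratio was -0.09 (-0.13 to -0.06) for Gli3 and 0.01 (-0.05 to 0.07) for Smo. For Gli1 and Gli2, below the level counted, it was 0.48 (-0.30 to 1.27) and -0.58 (-1.21 to 0.03), and both intervals include 0. All of these intervals cover counting error only, not the spread between mice.

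**Figure D2:**
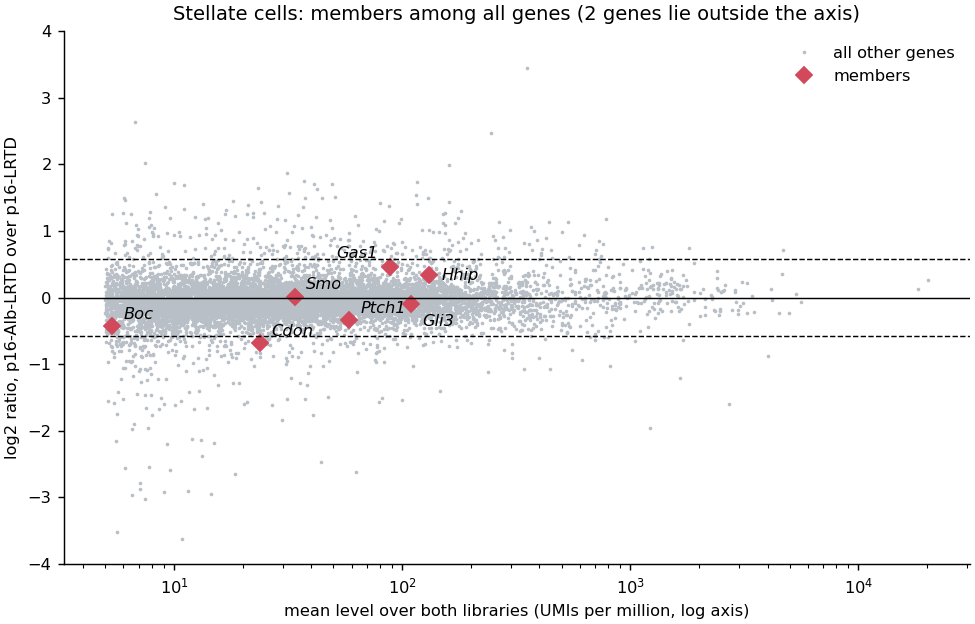
Log2 ratio of p16-Alb-LRTD over p16-LRTD in stellate cells against the mean level over both libraries (CPM, log axis) for 10179 genes (grey) and the 7 members counted (diamonds), with dashed lines at 1.5-fold. Only Cdon, at -0.68, lies past a dashed line, and Gas1 at 0.46 and Hhip at 0.34 are the highest members.

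The share of cells with a UMI showed the same directions after each cell had been thinned to 5000 UMIs, since the median depth of stellate cells was 17024.5 UMIs in p16-LRTD and 18136 in p16-Alb-LRTD. Thinning left out 16 and 7 shallower cells. Hhip was found in 31.8% (exact binomial interval 30.8 to 32.9) of stellate cells in the p16-LRTD library against 39.0% (37.8 to 40.2) in p16-Alb-LRTD. Gas1 was found in 27.0% (26.1 to 28.0) and 35.2% (34.1 to 36.4). Ptch1 was found in 27.3% (26.3 to 28.3) and 21.1% (20.1 to 22.1), Cdon in 11.8% (11.1 to 12.5) and 8.29% (7.63 to 8.98) and Boc in 2.96% (2.60 to 3.36) and 2.18% (1.84 to 2.56). The intervals of the libraries did not overlap for these 5 genes, although those of Boc did when cells were thinned to 3000 UMIs (1.63%, 1.36 to 1.94, and 1.42%, 1.15 to 1.73). They overlapped for Gli3, at 39.9% and 37.9%, and for Smo, at 14.2% and 15.3%. Gli1 was found in 0.0766% and 0.106% of stellate cells. In Kupffer cells, where Hhip was at background, it was found in 0.719% of 278 cells and 1.13% of 177 cells. Without thinning, the shares in stellate cells were 56.4% and 65.3% for Hhip, 58.8% and 70.4% for Gas1, 61.1% and 54.6% for Ptch1, and 31.4% and 24.6% for Cdon. Median depths before thinning were 19887.5 and 25145 UMIs in these Kupffer cells.

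The libraries differed in more than these genes. Col1a1, the main fibrillar collagen gene, was at 1950 CPM in the stellate cells of the p16-LRTD library against 504 CPM in p16-Alb-LRTD. The summed level of 5 fibroblast markers (Dpt, Cd34, Clec3b, Pi16 and Entpd2) was 79.3 and 39.1 CPM, with all 5 lower in p16-Alb-LRTD and none at 0. That of 4 smooth muscle markers (Myh11, Cnn1, Actg2 and Lmod1) was 159 and 76.5 CPM, with 3 of 4 lower and none at 0, and its part in the members' differences was not tested. The summed level of 8 cell cycle genes was 130 and 27.7 CPM. The members were therefore followed along the collagen level within each library. Stellate cells were split into 3 equal bins of the summed UMIs of Col1a1, Col1a2 and Col3a1 per 10000, cut at 16.6 and 37.0 over both libraries together. The highest bin held 3509 p16-LRTD cells (44.7%) but 1315 p16-Alb-LRTD cells (19.9%), and the lowest held 2267 (28.9%) and 2558 (38.6%).

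Within each library the components divided along collagen. The co-receptors and Smo were higher in collagen-high cells, and Hhip was lower. Boc went from 1.47 CPM in the lowest bin through 2.22 to 10.2 CPM in the highest bin of p16-LRTD, and from 1.77 through 3.68 to 11.9 CPM in p16-Alb-LRTD. Cdon went from 9.05 through 16.4 to 45.2 CPM in p16-LRTD, a 4.99-fold difference. In p16-Alb-LRTD it went from 11.8 through 18.9 to 29.7 CPM, a 2.52-fold difference. Gas1 went from 48.0 through 54.7 to 96.4 CPM and from 74.6 through 102 to 159 CPM, a similar fold of 2.01 and 2.13. Smo went from 21.1 through 24.1 to 44.3 CPM and from 26.0 through 34.0 to 49.9 CPM. Each of these 4 genes was thus higher at every step of both libraries.

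The ligand antagonist had the reverse profile. Hhip was at 192 CPM in the lowest, 171 CPM in the middle and 52.3 CPM in the highest collagen bin of p16-LRTD. In p16-Alb-LRTD it was at 204, 138 and 51.3 CPM. The lowest bin was 3.68-fold and 3.97-fold the highest. Ptch1 went from 98.8 through 81.2 to 42.7 CPM in p16-LRTD but only from 57.2 through 50.2 to 44.5 CPM in p16-Alb-LRTD. Gli3 varied least, with 103, 103 and 123 CPM in p16-LRTD and 99.7, 107 and 117 CPM in p16-Alb-LRTD. Gli2, with few UMIs, had 2, 3 and 58 of them in the lowest, middle and highest bin of p16-LRTD and 5, 16 and 16 in p16-Alb-LRTD. Its log2 ratio of highest over lowest bin was 3.78 (1.86 to 6.86) and 2.64 (1.13 to 4.44). Without cells holding a UMI of the fibroblast list described next, Gli2 had 1 and 8 UMIs in the lowest and highest bin of p16-LRTD and 5 and 1 in p16-Alb-LRTD, so its direction was not the same in both libraries.

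**Figure D3:**
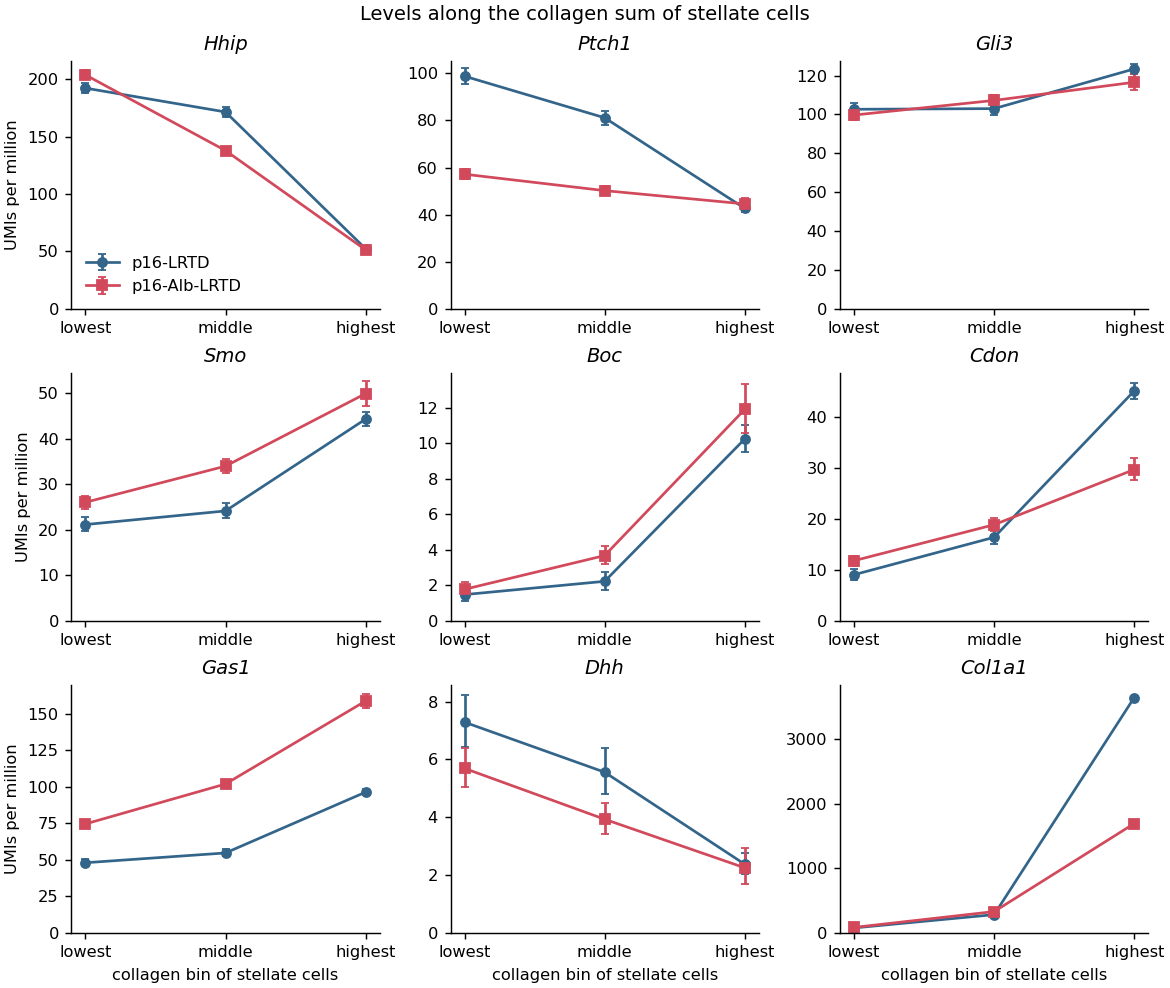
Level (CPM) of 7 members, of the ligand Dhh and of Col1a1 in the lowest, middle and highest collagen bin of stellate cells in p16-LRTD (circles) and p16-Alb-LRTD (squares), with 95% Poisson intervals. Boc, Cdon, Gas1 and Smo are highest in the highest bin of both libraries, and Hhip and Dhh are lowest there.

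In both libraries, 4 of the 7 members counted (Smo, Boc, Cdon and Gas1) were at least 1.5-fold higher in the collagen-highest than in the collagen-lowest cells, against 4.76% of all genes, and 1 (Hhip) was at least 1.5-fold lower, against 3.52%. Boc passed the minimum only through the highest bin, which fixed its call, and the other 3 did not depend on the filter in this way. The fibroblast marker Dpt was 114-fold and 61.3-fold higher in the same bin, so the comparison was repeated in cells with no UMI of the fibroblast list, which left 1464 and 567 cells in the highest bin. There 2 of 6 members counted (Smo and Cdon) were at least 1.5-fold higher in both libraries, against 2.7% of all genes, and Hhip was still lower, against 2.37%. Cdon was then at 36.3 against 9.29 CPM in p16-LRTD and at 24.0 against 12.0 CPM in p16-Alb-LRTD. Smo was 1.64-fold and 1.56-fold higher. Gas1 was 1.46-fold and 1.59-fold higher. Boc, now under the level counted in both libraries, was at 1.23 and 4.61 CPM in the lowest and highest bin of p16-LRTD and at 1.62 and 7.84 CPM in p16-Alb-LRTD. Ecm1, a gene of the stellate rule, was itself lower in the highest than in the lowest bin of these cells, at 2550 against 3874 CPM in p16-LRTD and 2485 against 4089 CPM in p16-Alb-LRTD. Lrat, another rule gene, was at 1415 against 1377 CPM and 1651 against 1474 CPM. The part of other mesenchymal cells and of depth in these gradients was not tested. The median depth was 14730 UMIs in the lowest and 19723 in the highest bin of p16-LRTD, and 18365 and 18193 in p16-Alb-LRTD.

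HSCs also differ by their position in the lobule. Cells were ordered by markers of central-vein HSCs (Adamtsl2, Rspo3, Loxl1, Spon2 and Podn) minus markers of portal HSCs (Ngfr, Igfbp3, Il34, Tagln and Dach1), and again split into 3 equal bins. Cdon was at 13.4 CPM in portal-side and 46.7 CPM in central-side cells of p16-LRTD, and at 9.50 and 26.3 CPM in p16-Alb-LRTD. Smo went from 24.2 to 44.1 CPM and from 24.7 to 45.0 CPM, a fold of 1.82 in each library. Gas1 went from 59.7 to 97.8 CPM and from 71.3 to 137 CPM. These were the 3 of 6 members counted in both libraries that were at least 1.5-fold higher on the central side, against 3.69% of all genes. Boc, at 2.99 and 10.2 CPM and at 2.66 and 7.30 CPM, was under the level counted in p16-Alb-LRTD. No member was 1.5-fold lower on the central side in both libraries, against 3.21% of all genes. Ptch1 differed between the libraries here too. It went from 94.2 CPM on the portal side to 43.2 CPM on the central side in p16-LRTD, and from 56.3 to only 49.6 CPM in p16-Alb-LRTD. Col1a1 went from 801 to 3131 CPM and from 324 to 743 CPM along the same ordering, so the collagen and zone orderings are not independent. The fibroblast marker Dpt went from 15.2 to 115 CPM and from 4.43 to 61.9 CPM, a larger fold than that of any member, and its part in the differences of Cdon, Smo, Gas1 and Boc was not tested.

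Ordering by Galnt14 and Cdh18, which mark a further group of HSCs, separated Hhip from the co-receptors again. Because 39.3% of the cells had no UMI of either gene, these formed the first bin and the others were split at their median. Hhip was at 58.2, 106 and 181 CPM in the 3 bins of p16-LRTD and at 103, 149 and 197 CPM in those of p16-Alb-LRTD. It was the 1 of 6 members at least 1.5-fold higher in the last than in the first bin in both libraries, beside 0.562% of all genes. Galnt14 and Cdh18 were taken as an ordering because they had been grouped with Hhip in earlier results of these cells, so this is a description and supports nothing further. Boc went the other way, from 9.29 to 2.87 CPM and from 7.40 to 2.14 CPM, and Gas1 from 95.3 to 55.1 CPM and from 125 to 84.1 CPM. Dpt moved with them, from 107 to 19.4 CPM and from 54.6 to 8.58 CPM, and its part was not tested. No member counted was 1.5-fold lower in both libraries, against 2.18% of all genes.

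**Figure D4:**
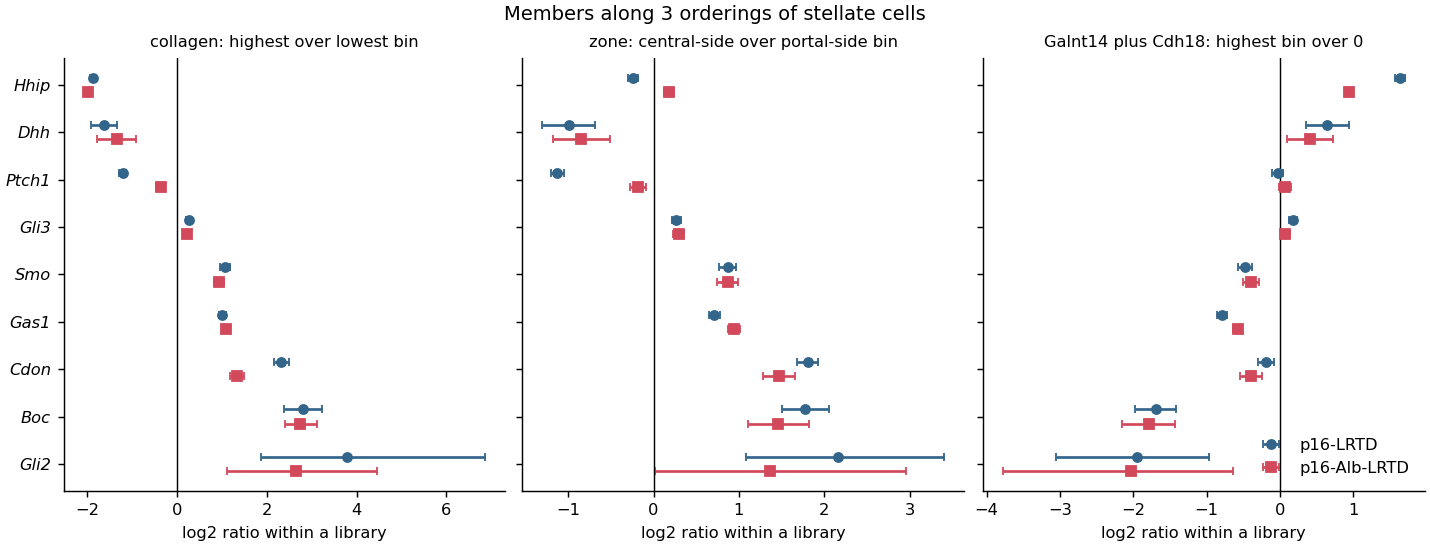
Log2 ratio of the last over the first bin within each library for 8 members and Dhh along the collagen, zone and Galnt14 plus Cdh18 orderings of stellate cells (circles, p16-LRTD; squares, p16-Alb-LRTD; bars, 95% exact conditional intervals). Boc, Cdon, Gas1 and Smo lie right of 0 along collagen and zone and left of 0 along Galnt14 plus Cdh18, and Hhip lies left of 0 along collagen.

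Because the bins held different shares of the cells of each library, the libraries were compared again within each collagen bin. For several members the ratio in all stellate cells was not the ratio within bins. Hhip, at 0.34 in all stellate cells, had log2 ratios of 0.08 (0.04 to 0.13), -0.31 (-0.36 to -0.27) and -0.03 (-0.12 to 0.07) from the lowest to the highest bin. Boc, at -0.42 in all cells, had 0.27 (-0.25 to 0.79), 0.73 (0.34 to 1.13) and 0.22 (0.02 to 0.41). Cdon, at -0.68, was higher in p16-Alb-LRTD in the lowest bin (0.38, 0.18 to 0.59) and the middle bin (0.20, 0.05 to 0.35) and lower in the highest (-0.60, -0.72 to -0.49). When both libraries were given the same shares of the 3 bins, Hhip stood at -0.08, Boc at 0.32 and Cdon at -0.23. With equal shares the direction of Hhip and Boc between the libraries was thus reversed, and Cdon no longer passed 1.5-fold. The part of the mix of collagen-low and collagen-high cells in these differences was not tested.

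Gas1 and Ptch1 kept their directions under equal shares. Gas1 was higher in p16-Alb-LRTD in every bin, with log2 ratios of 0.64 (0.55 to 0.72), 0.90 (0.82 to 0.97) and 0.72 (0.66 to 0.78), and stood at 0.75 with equal shares, past 1.5-fold. Ptch1 was lower in the lowest (-0.79, -0.86 to -0.72) and middle bin (-0.69, -0.77 to -0.62) but not in the highest (0.06, -0.04 to 0.16), and stood at -0.55. Smo was higher in p16-Alb-LRTD in every collagen bin, by 0.30, 0.49 and 0.17, but not in all stellate cells together nor in the zone bins, where the log2 ratios were 0.03, -0.17 and 0.03. The bins were not matched between the libraries in fibroblast transcripts or collagen. Dpt was at 3.48 and 15.9 CPM in the middle bin and at 116 and 112 CPM in the highest, where Col1a1 was still lower in p16-Alb-LRTD, at 3642 and 1691 CPM. In stellate cells with no UMI of the fibroblast list (5223 and 4955 cells), the log2 ratios were 0.16 for Hhip, 0.11 for Boc, -0.37 for Cdon, 0.66 for Gas1 and -0.54 for Ptch1.

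**Figure D5:**
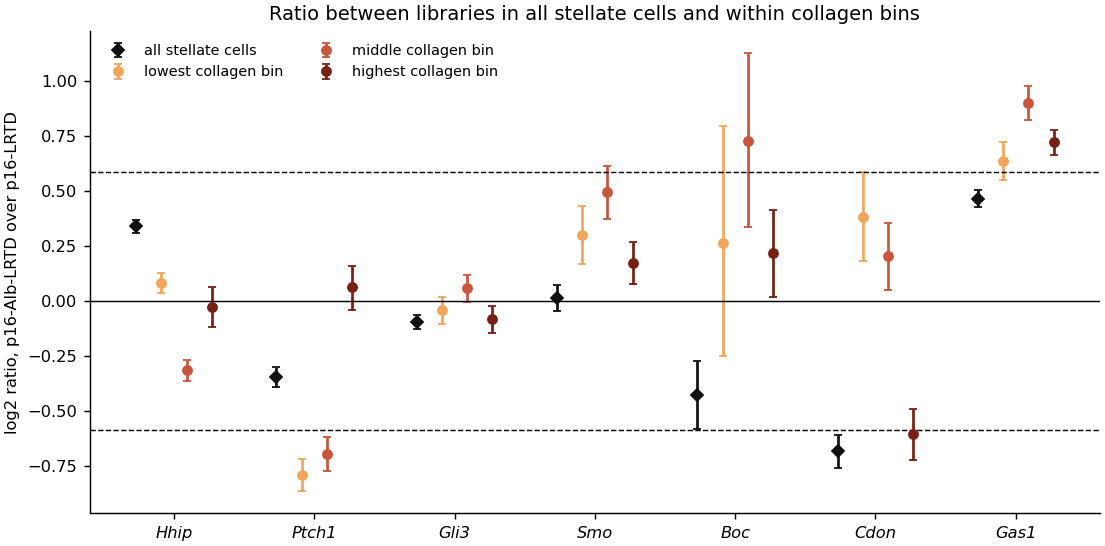
Log2 ratio of p16-Alb-LRTD over p16-LRTD for 7 members in all stellate cells (black diamonds) and in the lowest, middle and highest collagen bin (circles), with 95% exact conditional intervals and dashed lines at 1.5-fold. Boc lies below 0 in all cells and above 0 in each bin, Gas1 lies above 0 throughout, and Ptch1 lies near -0.79 in the lowest bin and near 0.06 in the highest.

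Differences between the libraries also moved with the depth of the cells. In the shallowest of 3 equal bins of UMIs per cell the level of Cdon was 19.7 CPM in the p16-LRTD and 22.0 CPM in the p16-Alb-LRTD library, in the middle bin 27.3 and 18.2 CPM, and in the deepest 36.1 and 16.9 CPM. Dpt went from 33.7 and 39.0 CPM in the shallowest to 82.4 and 27.3 CPM in the deepest cells. From the shallowest through the middle to the deepest bin, the log2 ratio of Ptch1 was -0.70, -0.35 and -0.06 (-0.13 to 0.02), so that Ptch1 did not differ beyond counting error in the deepest cells. That of Boc was 0.48, -0.30 and -0.79, a change of sign, and that of Gas1 was 0.72, 0.57 and 0.28. Smo also changed sign, at 0.38, 0.07 and -0.18 (-0.27 to -0.10). The part of depth or of fibroblast transcripts in these differences was not tested. Cycling cells, those with a UMI of at least 2 of the 8 cell cycle genes, were 373 (4.75%) in p16-LRTD and 136 (2.05%) in p16-Alb-LRTD. Hhip was lower in them, at 61.3 CPM against 119 CPM in the other stellate cells of p16-LRTD and 104 against 147 CPM in p16-Alb-LRTD. Ptch1 was at 42.6 against 67.4 CPM and 39.7 against 52.1 CPM, whereas Gas1 was at 77.2 against 74.2 CPM and 106 against 103 CPM.

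Member pairs were then examined for detection in the same cell, at 5000 UMIs per cell. Of 27 pairs of members and Dhh with at least 10 expected cells in each library, 1 pair had an exact interval of observed over expected cells wholly below 1 in both libraries and 1 wholly above 1, where the expected number is the product of the shares. Hhip and Boc were found together in 36 cells of p16-LRTD against 73.9 expected, a ratio of 0.487 (0.341 to 0.675), and in 27 cells of p16-Alb-LRTD against 56.2, a ratio of 0.481 (0.317 to 0.699). Smo and Cdon were found together at 1.30 (1.11 to 1.51) and 1.44 (1.19 to 1.72) times the expected number. Hhip and Ptch1, both GLI targets, were at 1.03 (0.951 to 1.10) and 1.02 (0.936 to 1.11). The other pairs lay between 0.637 and 1.87.

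The genes most like each member over stellate cells were found by Pearson's r of log-normalised values, over 7852 and 6621 cells that share a library. These are descriptions only, since sparse counts keep r low. Hhip was most like Ecm1, a gene of the stellate rule (r of 0.47 in p16-LRTD and 0.39 in p16-Alb-LRTD), followed by Rgs5 (0.39 and 0.39), 1700025G04Rik (0.41 and 0.35), Colec10 (0.35 and 0.34) and Tgfbi (0.34 and 0.33). Gas1 was most like Wt1 (0.34 and 0.30), followed by Plxna4, Alcam, Fam180a and Gas6. Smo was most like Alcam (0.25 and 0.24), Col1a1 and Plxna4, and Cdon was like Alcam alone (0.30 and 0.20) at r of at least 0.2. Gli3 reached that level with Sox5 (0.22 and 0.22), Zfpm2 and Zbtb20, and Ptch1 with no gene. No pair of members reached it.

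The ligands were scarce in these cells. Shh had 0 UMIs in all 3 classes of both libraries, which allows up to 0.0210 CPM in the stellate cells of p16-LRTD mice and 0.0240 CPM for p16-Alb-LRTD. Ihh had 4 and 9 UMIs in stellate cells. Dhh was the ligand with the most UMIs, at 620 UMIs (4.35 CPM) and 535 UMIs (4.28 CPM) in stellate cells, a log2 ratio of -0.02 (-0.19 to 0.15). It had 8 and 5 UMIs in the smaller endothelial class, where the stellate level was 3.34-fold (1.69 to 7.78) and 3.41-fold (1.45 to 10.5) the endothelial one, and 0 in Kupffer cells. Dhh followed Hhip and Ptch1 along collagen, from 7.29 through 5.56 to 2.37 CPM in p16-LRTD and from 5.69 through 3.93 to 2.25 CPM in p16-Alb-LRTD. Hepatocytes and cholangiocytes, the epithelial cells of the liver, were not among the classes.

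Of 6 genes for ligand acylation and release, 4 had at least 5 CPM on average in stellate cells, and none of these differed by 1.5-fold over all stellate cells. Disp2, of the Dispatched family, was at 49.2 and 33.3 CPM (log2 ratio -0.56, -0.62 to -0.51), and Disp1, which releases lipid-modified ligand, was at 28.1 and 20.9 CPM (-0.43, -0.50 to -0.36). Scube1, of a family of secreted ligand carriers, was at 40.4 and 53.7 CPM (0.41, 0.36 to 0.46). These genes also split along collagen. Disp2 went from 90.3 to 17.7 CPM in p16-LRTD and from 53.5 to 7.22 CPM in p16-Alb-LRTD, while Scube1 went from 4.54 to 70.2 CPM and from 21.9 to 117 CPM. Within the 3 bins both passed 1.5-fold between the libraries, with Scube1 4.83-fold, 3.85-fold and 1.66-fold higher in p16-Alb-LRTD and Disp2 1.69-fold, 2.76-fold and 2.45-fold lower. Neither differed beyond counting error in the deepest cells. From the shallowest to the deepest bin the log2 ratio was 1.40, 0.61 and -0.05 (-0.12 to 0.02) for Scube1 and -1.27, -0.69 and -0.03 (-0.12 to 0.05) for Disp2.

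Of 21 transducers (Sufu, the GLI-binding inhibitor, and kinases, ubiquitin ligase subunits and Smo partners), 18 were counted in stellate cells and all were within 1.5-fold, with log2 ratios from -0.46 to 0.11. Sufu was at 25.0 and 24.9 CPM. Of 14 genes of the primary cilium, 13 were counted and all were within 1.5-fold, from -0.35 to 0.13. Of 10 listed targets, 7 were counted, and Mycn alone differed by 1.5-fold. With 3.05% of all stellate genes lower and 3.03% higher by that fold, counts of 0 or 1 in lists this short are near the background and are not read as results. Mycn, a proliferation-linked transcription factor, was at 8.08 and 4.66 CPM, with a log2 ratio of -0.79 (-0.94 to -0.65). Foxf1, a mesenchymal transcription factor and Hedgehog target, was at 177 and 172 CPM, and Bmp4 at 46.7 and 50.1 CPM.

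In the smaller classes the libraries differed in Smo. Of the 2 members with at least 5 CPM on average in endothelial cells, 1 (Smo) was at least 1.5-fold higher in p16-Alb-LRTD, at 3.09 CPM (1.86 to 4.82, 19 UMIs) and 7.03 CPM (4.67 to 10.2, 28 UMIs), a log2 ratio of 1.19 (0.30 to 2.11). Among all genes of that class 6.44% were higher by that fold and 13.5% lower. Smo passed the minimum only through its p16-Alb-LRTD level, with a mean of 5.06 CPM, so its count is not read against that share. Ptch1 was within 1.5-fold, with 276 and 126 UMIs and a log2 ratio of -0.50 (-0.82 to -0.19). In Kupffer cells Smo was the 1 member counted and was lower in p16-Alb-LRTD, at 11.9 CPM (9.33 to 15.1, 71 UMIs) and 7.15 CPM (4.89 to 10.1, 32 UMIs), a log2 ratio of -0.74 (-1.39 to -0.12). Among all genes of that class 6.83% were lower and 5.21% higher by that fold, so 1 member of 1 says little beside them. Stellate transcripts in the endothelial cells did not move one way. Col1a1 was at 215 and 5.02 CPM there and the 5 fibroblast markers at 48.9 and 25.6 CPM. The 5 stellate check genes summed to 436 and 345 CPM, and the 4 genes of the stellate rule to 292 and 398 CPM. In cells under 5 stellate-rule UMIs per 10000, the log2 ratio of Smo was 1.81 in 365 and 200 endothelial cells and -0.92 in 256 and 170 Kupffer cells.

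Of the 4 listed targets counted in endothelial cells, 2 were at least 1.5-fold lower in p16-Alb-LRTD, beside 13.5% of all genes. Ccnd1, a cyclin of the G1 phase, was at 1024 and 395 CPM (log2 ratio -1.37, -1.45 to -1.29), and Bcl2, an inhibitor of cell death, was at 135 and 73.3 CPM (-0.88, -1.08 to -0.69). The summed cell cycle genes were at 77.3 and 15.1 CPM in these cells. Of 3 targets counted in Kupffer cells, 2 were at least 1.5-fold higher, beside 5.21% of all genes. Bcl2 was at 33.8 and 52.1 CPM and Ccnd2 at 7.91 and 17.4 CPM, the opposite direction to the endothelial Bcl2. In the same Kupffer cells 5 endothelial markers (Pecam1, Clec4g, Lyve1, Cdh5 and Oit3) summed to 449 and 664 CPM, with 3 higher and 2 lower in p16-Alb-LRTD. The summed cell cycle genes were at 88.5 and 49.6 CPM there. The part of either in the Kupffer differences was not tested. Bcl2 and the cyclins also have many inducers outside the pathway.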

How the data were processed

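The authors aligned and counted the reads of both 10x 3′ libraries with Cell Ranger 7.0.1 against mm10, as the submitters' processing notes and the study's methods state, and deposited raw UMI counts per gene and cell. Whether intronic reads were counted is not given in the sources used here. The study's filters were applied to these counts: at most 5% mitochondrial UMIs, 2000 to 7000 genes and at most 50000 UMIs per cell. No doublet caller was run, and cells over several marker thresholds were left out.

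For each class and library, counts were added up over cells and scaled to UMIs per 1000000 (CPM). A gene was counted with a mean of at least 5 CPM over the 2 values compared, and called at 1.5-fold. Intervals are 95% exact Poisson, conditional binomial (ratios) and Clopper-Pearson (shares). A count of 0 was given the limit of 3 counts. With 1 library per genotype no test was run, and whether the libraries pool several mice is unknown, so the spread between mice is not covered. Because these are 3′ counts with no length correction, ratios and folds were taken per gene and not between genes. Where genes are called scarce, this describes the UMIs counted, and how well each gene was captured was not tested. All 9 members were named, as were the ligands, each listed pathway gene past 1.5-fold in stellate cells, and up to 5 genes with the highest r for members with a UMI in at least 20% of stellate cells. Disp1, Disp2, Scube1, Sufu, Foxf1, Bmp4 and the genes named in endothelial and Kupffer cells were added after their values were seen. The members, gene lists and orderings were chosen with earlier results of these data known. Scripts used Python 3.11.15, numpy 2.4.6, scipy 1.17.1, pandas 2.3.3 and, for TMM factors, edgeR 4.0.16 in R 4.3.3, and were tested on simulated data. Alternatives covered scaling, the filters, the thresholds, the minimum level, depth, thinning, and the mix of collagen and zone bins. Some genes of the lists are not reported here, and 1 was left out of the stellate markers used as a check.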

Additional observations from a re-analysis of the deposited data

Results flagged for a closer look

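Smo differed between the libraries in opposite directions in 2 classes. Its log2 ratio of p16-Alb-LRTD over p16-LRTD was 1.19 in endothelial cells, from 19 and 28 UMIs, and -0.74 in Kupffer cells, from 71 and 32 UMIs. There is 1 library per genotype, and the difference between the classes was not tested.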

How the results depend on the processing

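No paired analysis was possible because there is only 1 library for either genotype, and so no library could be left out. The median log2 ratio of the members in stellate cells, -0.09, was -0.0505 with TMM scaling, -0.0481 with median of ratios scaling, -0.0383 with doubled thresholds, -0.0518 as a mean of per-cell CPM, -0.0248 with equal shares of collagen bins and 0.0506 without cells holding a fibroblast UMI, where its sign changed. The count of 1 lower member in stellate cells (Cdon) became 0 as a mean of per-cell CPM, with equal collagen shares and without fibroblast-UMI cells, and the count of 0 higher became 1 (Gas1) under the last 2. Without fibroblast-UMI cells, 3.25% of all stellate genes were higher and 2.85% lower by that fold. The count of 4 members higher in collagen-high cells became 2 without fibroblast-UMI cells. In endothelial cells the count of 1 higher member became 0 with every barcode (where the log2 ratio of Smo was still 1.21), 2 with cells over several thresholds kept and 4 with no minimum level, and the count of 0 lower became 2 at a minimum of 1 CPM and 2 with none. In Kupffer cells the count of 1 lower member became 4 with cells over several thresholds kept, 0 at 10000 to 30000 UMIs (Smo at -0.57), 4 at a minimum of 1 CPM and 4 with none, and the count of 0 higher became 1 at 1 CPM and 1 with none. At a minimum of 1 CPM, 9.83% of all genes were higher and 18.0% lower in endothelial cells, and 8.07% and 12.8% in Kupffer cells. With no minimum these shares were 18.3% and 26.7%, and 14.2% and 23.8%. No such share is given here with cells over several thresholds kept. These counts are not read as results, and the cause of the changes was not tested. Of 15 alternatives in stellate cells, both changes of the minimum level leave the ratio of a single gene as it is. Under the others, Ptch1, Gli3, Cdon and Gas1 kept their sign, Hhip changed sign in 1, Smo in 1 and Boc in 2. The alternatives without fibroblast-UMI cells, without barcodes found in both libraries, and with only cells low in stellate genes were chosen after seeing the data. Depth limits Gli1 and Gli2 in every class and most members in endothelial and Kupffer cells.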

Other observations

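Cells over no class threshold (194 in the control and 113 in the p16-Alb-LRTD library) held a Hedgehog profile that differed from that of stellate cells. The co-receptors were high in them, with Gas1 at 339 CPM (322 to 356) and 269 CPM (250 to 290), Cdon at 69.2 CPM (61.7 to 77.3) and 39.8 CPM (32.6 to 48.1), and Boc at 15.2 CPM (11.8 to 19.3) and 11.6 CPM (7.90 to 16.5). Hhip was at 2.01 and 4.50 CPM and Ptch1 at 7.61 and 12.4 CPM, below their stellate levels in both libraries. Gli2 had 18 and 7 UMIs there, or 4.03 and 2.63 CPM. These cells held Dcn at 6191 and 5038 CPM, Col1a1 at 3496 and 2408 CPM, Wt1 at 444 and 244 CPM, Cd34 at 191 and 102 CPM and Dpt at 137 and 89.3 CPM. The pool was mixed, as it also held the 6 Kupffer check genes at 1566 and 1630 CPM, the 6 hepatocyte genes at 1364 and 937 CPM, the 5 cholangiocyte genes at 138 and 121 CPM and the 5 lymphocyte genes at 31.3 and 96.4 CPM. The 5 mesothelial genes (Msln, Upk3b, Upk1b, Krt8 and Wt1) summed to 612 and 423 CPM in it, against 45.7 and 44.3 CPM in stellate cells. Its cells were not assigned to a cell type, and no comparison of genotypes rests on them.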
